A study of Mus musculus with 48 samples.

Results

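The clustered protocadherins are 58 genes of the mouse that lie in 3 neighbouring groups on chromosome 18. They were taken from the deposited count table by their gene symbols, which gave 14 alpha, 22 beta and 22 gamma genes of 57126 gene identifiers. Levels were tested for 53 of them (11 alpha, 21 beta and 21 gamma), the number that passed the filter on low counts. Of those 53, none passed an adjusted p of 0.05 in any of 16 comparisons between groups in edgeR. Among all 16360 genes tested, 7 (0.0428%) passed between control females and control males, and 0 in every other comparison. The widest differences were between single animals: Pcdhgb8, a gamma gene, was at 5.72 CPM (counts scaled to a common library size) or more in 11 libraries and at 1.04 CPM or less in the other 37.

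Protocadherins are cell adhesion proteins of the cadherin superfamily. Each neuron switches on a small and partly random choice of promoters in the clusters, through the insulator protein CTCF and the cohesin ring, and the resulting mixture of proteins on the cell surface helps a neuron tell its own branches from those of others. In the alpha and gamma clusters each gene contributes a variable first exon, which codes for the outer part of the protein and is spliced to constant exons shared by the whole cluster, whereas beta genes consist of a single exon with no constant part. The last genes of the alpha and gamma clusters, called C-type isoforms (Pcdhac1, Pcdhac2, Pcdhgc3, Pcdhgc4 and Pcdhgc5), are used more evenly among neurons than the others.

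The hippocampus of 48 mice of the CD-1 stock, which is outbred, was sampled at 2 months of age. The dams had received lead (Pb, 100 ppm), manganese (Mn, 2 g/L), a combination of Pb and Mn, or neither in their drinking water, starting 2 weeks before mating and ending at weaning on postnatal day 21, an exposure of 8 weeks. Males and females of the control, Mn, Pb and Pb+Mn treatments made up 8 groups of 6 animals, numbered 1 to 6 in each. The labels do not name the litters, so the p-values below measure the spread between animals, and littermates may be among them. Libraries were made from poly(A) RNA of the whole tissue, in which fewer cells of a type and less RNA per cell cannot be told apart.

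Library totals ran from 6273586 to 27639841 counts (median 15076923). The 58 protocadherin genes together received 3146 to 12650 counts, or 0.0231 to 0.0607% of a library. Between 55 and 58 of them had at least 1 count in a library, and between 54 and 58 (median 55) after every library was thinned to the total of the shallowest. Markers of hippocampal neurons (Prox1, Wfs1, Neurod6, Camk2a and others) were measured for 10 of 10 genes. Choroid plexus markers, which belong to a neighbouring tissue, summed to between 49.0 and 4541 CPM in the control males alone.

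How reads of shared exons were treated bears on every alpha and gamma value. In the GENCODE M21 annotation, most alpha genes shared 2860 bases of exon with other members, and most gamma genes shared 2119. The beta genes shared none, apart from 455 bases where Pcdhb21 and Pcdhb22 overlap. The settings of the authors' counting for such bases are not given in the sources used here. In the count table, 4 read-through gene models that span protocadherin genes and have no exonic base of their own had 0 counts in all 48 libraries. Of 554 such models genome-wide, 509 (91.9%) were at 0. Levels are therefore given per kilobase of a gene's own exons, and those of alpha and gamma genes carry an uncertainty that those of beta genes do not. Pcdha4 is the extreme case, with 494 bases of its own among 5768 of exon, and it received 0 to 5 counts per library.

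The 5 remaining members did not pass the filter on low counts. Besides Pcdha4 they were Pcdhga10 (0 to 6 counts), Pcdha8 (1 to 25), Pcdhb1 (1 to 12) and the identifier ENSMUSG00000102206 (0 to 4), the second of a pair that carry the symbol Pcdha11. The other, ENSMUSG00000007440, had 19 to 127 counts and was tested. Pcdhga10 had 2613 bases of its own exon, a length like that of Pcdhga5 (2545), so its low count was not matched by a short counted region.

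C-type isoforms stood at the top of the family. Per kilobase of own exon, Pcdhgc5 reached 18.3 ± 4.43 CPM (SD, n = 48), Pcdhgc3 14.5 ± 1.43 and Pcdhac2 9.94 ± 2.21, and no other member exceeded the 5.10 ± 1.18 of Pcdhgb6, a gamma B-type isoform. The order of neighbours was not the same in every animal: Pcdhgc5 was above Pcdhgc3 in 37 of 48 libraries, Pcdhgc3 above Pcdhac2 in 46, and Pcdhac2 above Pcdhgb6 in 48. The other C-type genes were not set apart in this way. Pcdhgc4, a gamma isoform required for neuronal survival in mice, held place 17 with 2.32 ± 0.68 CPM per kilobase, and Pcdhac1 place 37 with 1.15 ± 0.31. The 3 leading genes kept places 1 to 3 when the shared exons were counted into the length.

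The clusters overlapped in level below these leaders. Median levels per kilobase of own exon were 0.916 CPM among alpha, 1.14 among beta and 2.73 among gamma genes. Pcdhb9 led the beta cluster with 3.35 ± 0.69 CPM per kilobase and Pcdhac2 the alpha cluster. The weakest tested members were Pcdha1, the first gene of the alpha cluster, with 0.321 ± 0.131 and Pcdhb12 with 0.418 ± 0.12. Of all counts in the family, 61.9% belonged to gamma, 24.9% to beta and 13.2% to alpha genes. The 5 C-type genes together held 40.0 ± 1.58% (36.7 to 44.3%, n = 48), and in no group did their mean share leave the range from 39.0% (female control) to 40.6% (female Mn).

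**Figure D1:**
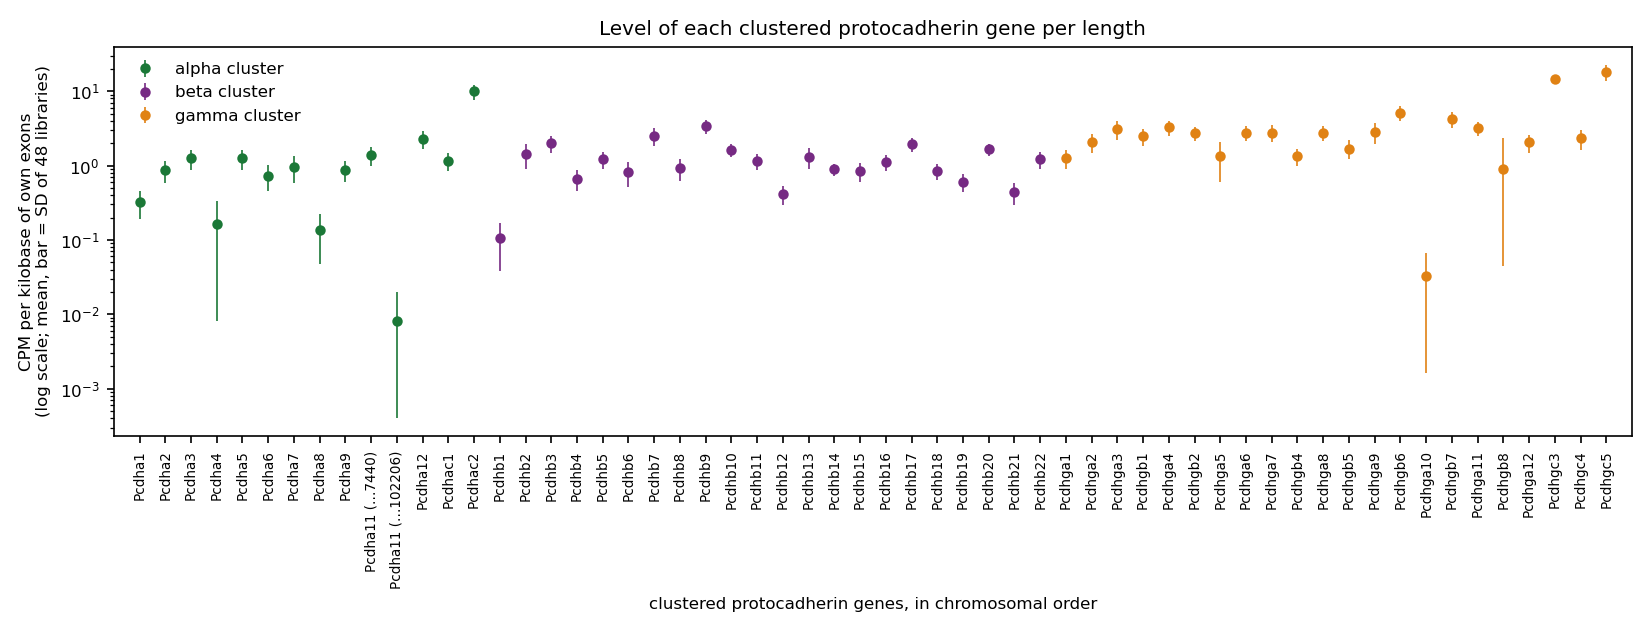
Level of each of the 58 genes in CPM per kilobase of own exon on a log axis, in chromosomal order; points are means of 48 libraries, and bars are SDs, whose lower end is drawn at 5% of the mean where it would be lower. Pcdhgc5, Pcdhgc3 and Pcdhac2 stand above the rest, and Pcdhgb8 has an SD wider than its mean.

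Pcdhgb8 was present at a high or a low level with nothing between. Its 11 upper libraries held 70 to 281 counts (5.72 to 16.2 CPM), and the highest of the lower libraries held 17 counts (1.04 CPM), a step of 2.33 on the log2 scale. No other tested member had a step wider than the 0.42 of Pcdhgb2. GENCODE M21 lists Pcdhgb8 as a polymorphic pseudogene, a gene that is intact in some genomes and disrupted in others, and it is the 1 member not listed as protein coding. Among all 16360 genes tested, 32 (0.196%) had a step of at least 2 with 3 or more libraries on either side. Pcdhgb8 is the only member among them, and the others include the sex-linked genes Ddx3y, Uty, Kdm5d, Eif2s3y and Xist.

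The upper libraries were spread over sexes and treatments. They were male control 2 (16.2 CPM, the highest of all), male Pb+Mn 2, 4 and 6, female control 2, 5 and 6, female Pb 4, 5 and 6, and female Pb+Mn 4. Both Mn groups and the male Pb group had 0 of 6 such libraries, whereas 3 of 6 were found in the female control, female Pb and male Pb+Mn groups, and 1 of 6 in the male control and female Pb+Mn groups. In male Mn the 6 animals ran from 0.197 to 0.802 CPM (median 0.444), and in female Mn from 0.248 to 0.645 (median 0.351). The male controls ran from 0.301 to 16.2 CPM (median 0.447) and the female controls from 0.374 to 9.78 (median 4.07), so no Mn animal reached the level of the upper control animals.

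The fold changes of Pcdhgb8 followed from these few animals. In edgeR its log2 fold change was -3.53 ± 1.08 (SE) for female Mn against control (adjusted p = 1) and -2.76 ± 1.08 for male Mn (adjusted p = 1). Without male control 2, the male value was 0.035. In females it lay between -3.77 and -2.48 over the alternatives. For a gene with 2 separate levels a fold change of group means describes how many animals are in the upper level, which the counts above give directly.

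**Figure D2:**
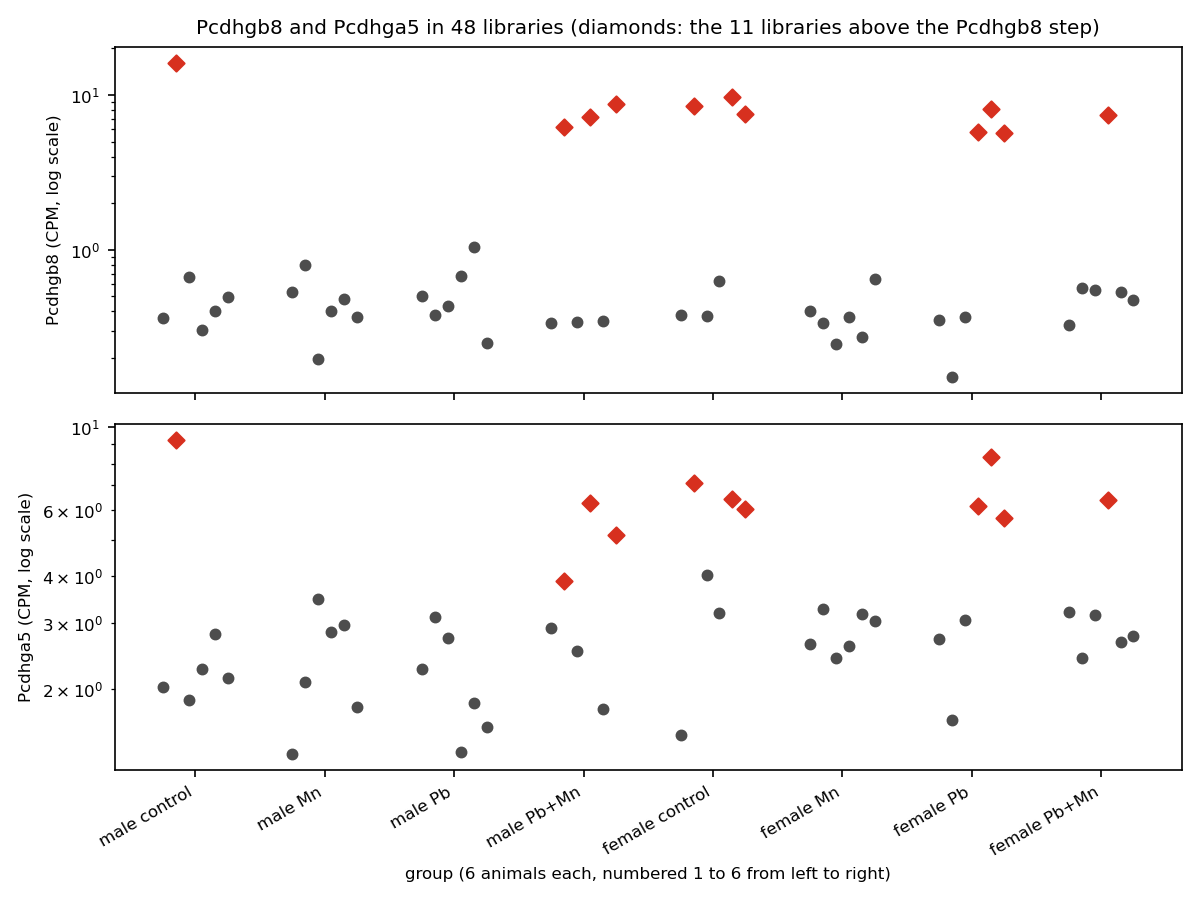
Pcdhgb8 (top) and Pcdhga5 (bottom) in CPM on log axes for the 48 libraries, animals 1 to 6 from left to right in each of the 8 groups; diamonds mark the 11 libraries above the Pcdhgb8 step. The 11 diamonds are at 5.72 CPM or more for Pcdhgb8, and 10 of them are the 10 highest libraries for Pcdhga5.

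Pcdhga5, a gamma A-type isoform upstream of Pcdhgb8, was high in the same animals. The 10 libraries highest in Pcdhga5 (5.16 to 9.27 CPM) all belonged to the 11 above the Pcdhgb8 step, and the remaining one, male Pb+Mn 2, held rank 12 with 3.89 CPM. The highest library outside that set was at 4.02 CPM. Pcdhb7, which lies in the beta cluster, shared 9 of the 11 among its own 11 highest. Of the 16359 other genes tested, 2 (0.0122%) shared at least 9, and these were Pcdhga5 and Pcdhb7. The remaining 31 genes with a step shared between 0 and 4 (median 2). This likeness was looked for after the Pcdhgb8 values had been seen, so it is a description of these 48 animals.

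Some isoforms ran with Pcdhgb8 and others against it once the overall level of the family in a library was removed. For this, the log2 CPM of each of the 53 members was centred on its own mean and then on the median member of the library. On that scale the 11 libraries above the Pcdhgb8 step were the 11 highest for Pcdhga5. They also made up 7 of the 11 highest for Pcdhb7 and Pcdhgb5 and 6 for Pcdhb3 and Pcdhb6. They made up 9 of the 11 lowest for Pcdhgb7 and 9 for Pcdhga9, both gamma isoforms, and 8 of the 11 lowest for Pcdhb9. They also made up 7 of the 11 lowest for Pcdhgb6 and 6 for Pcdhb13 and Pcdhb10. On the CPM scale itself the opposed isoforms were less set apart. Pcdhgb7 had 6 of these libraries among its 11 lowest, a number that 288 of 16359 genes (1.76%) reached. Pcdhgb7 was the only member to reach it. Isoforms that ran with Pcdhgb8 were not weaker throughout on that scale. These libraries made up 10 of the 11 highest for Pcdhga5, 9 for Pcdhb7, 7 for Pcdhgb5 and Pcdhb6, and 5 for Pcdhb3.

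**Figure D3:**
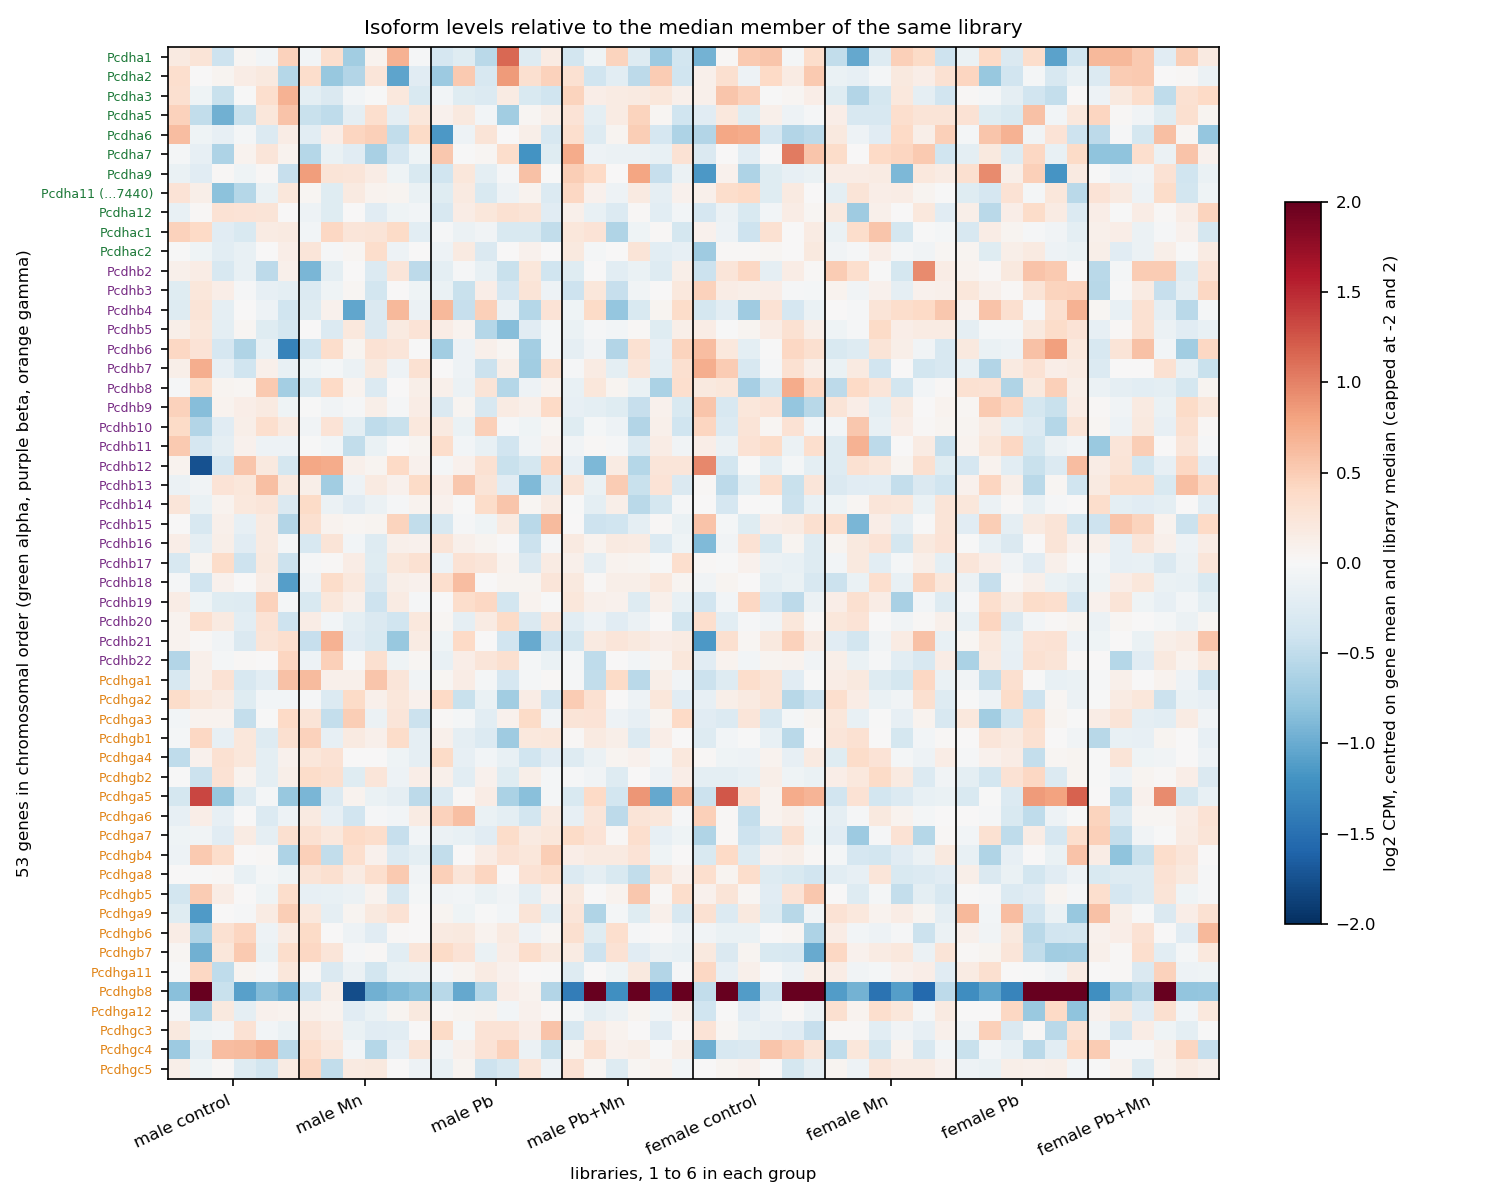
Log2 CPM of 53 members (rows, in chromosomal order, coloured by cluster) in 48 libraries (columns, by group), centred on the gene mean and on the median member of the library, with the colour scale ending at -2 and 2. The Pcdhgb8 row switches between red in 11 libraries and blue or pale in the rest, Pcdhga5 is red in the same columns, and most other rows stay pale.

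Pairs of isoforms moved together in a few places only. After centring and removal of group means, the correlation over 48 libraries had a median of 0.13 for 50 pairs of neighbours within a cluster (-0.47 to 0.80), 0.04 for 425 other pairs of a cluster, and -0.03 for 903 pairs from different clusters. No r is given for pairs with Pcdhgb8, whose libraries form 2 separate sets. Of the other pairs, the closest were the gamma isoforms Pcdhgb6 and Pcdhgb7 (r = 0.80) and Pcdhga9 and Pcdhgb7 (r = 0.63), followed by the beta and gamma pair Pcdhb9 and Pcdhgb7 (r = 0.60). The most opposed were Pcdhga5 with Pcdhga9 (r = -0.72), Pcdhgb7 (r = -0.70) and Pcdhb9 (r = -0.61), and then the beta genes Pcdhb2 and Pcdhb14 (r = -0.60). Of the 10 most negative pairs over all members, 9 held Pcdhgb8 or Pcdhga5. Before removal of group means, the 11 libraries above the Pcdhgb8 step were the 11 highest for Pcdhga5. They made up 9 of the 11 lowest for Pcdhgb7 and Pcdhga9, 8 for Pcdhb9 and 7 for Pcdhgb6. The r values among these genes therefore also span those 2 sets of libraries. All points share their library and its depth, and centring on a common median itself lowers such values.

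Pcdha8 met the rule set for all-or-none isoforms, but by its low counts. It ranged from 0.047 to 1.01 CPM over the 48 libraries, and it was never at 0, with 1 to 25 counts. Group medians ran from 0.13 CPM in male controls to 0.459 in female Pb, and all groups overlapped. The step was computed for tested genes only, so none was measured for Pcdha8.

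Spread between animals was widest, for their abundance, among gamma genes. In edgeR each gene has a dispersion, the variance beyond counting noise, and the ratio to the trend of genes of like abundance had a median of 0.98 for 21 gamma, 0.805 for 11 alpha and 0.703 for 21 beta genes, against 0.658 for all genes tested. It was above 1 for 15 of 53 members (all genes 29.1%): 10 gamma, 4 beta and 1 alpha. The highest ratio was that of Pcdhgb8 (9.99), followed by Pcdhgc5 (2.09), Pcdhga5 (1.93), Pcdhga9 (1.72), Pcdhac2 (1.69) and Pcdhga3 (1.48). Pcdhgc3 was among the steadiest, with 38.5 to 59.3 CPM over all 48 libraries, while Pcdhgc5 ran from 42.0 to 135 CPM and Pcdhac2 from 12.4 to 41.9.

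The total of the family in a library moved with a property of the whole library. A length trend was computed for each library as the slope of its centred log2 CPM on the log2 exonic length of the gene. That length is the merged exons of all transcripts of a gene. Negative values mark libraries in which genes of long exonic length had low values. The summed CPM of the 58 genes and this slope had a Pearson r of 0.92 and a Spearman rho of 0.82 on 48 libraries, and r = 0.86 without the 2 libraries farthest from the median slope. Both quantities come from the same counts. The lowest sums were those of female Pb 2 (244 CPM, slope -0.249), male Pb 6 (247 CPM, -0.276) and female control 1 (297 CPM, -0.178), and the highest that of female Pb 5 (640 CPM, 0.112). Across libraries, all 53 tested members had a positive correlation with the slope (median r = 0.63), compared with 49.1% of all genes tested (median r = -0.01). The median exonic length was 4.88 kb for the members tested and 4.23 kb for all genes tested.

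**Figure D4:**
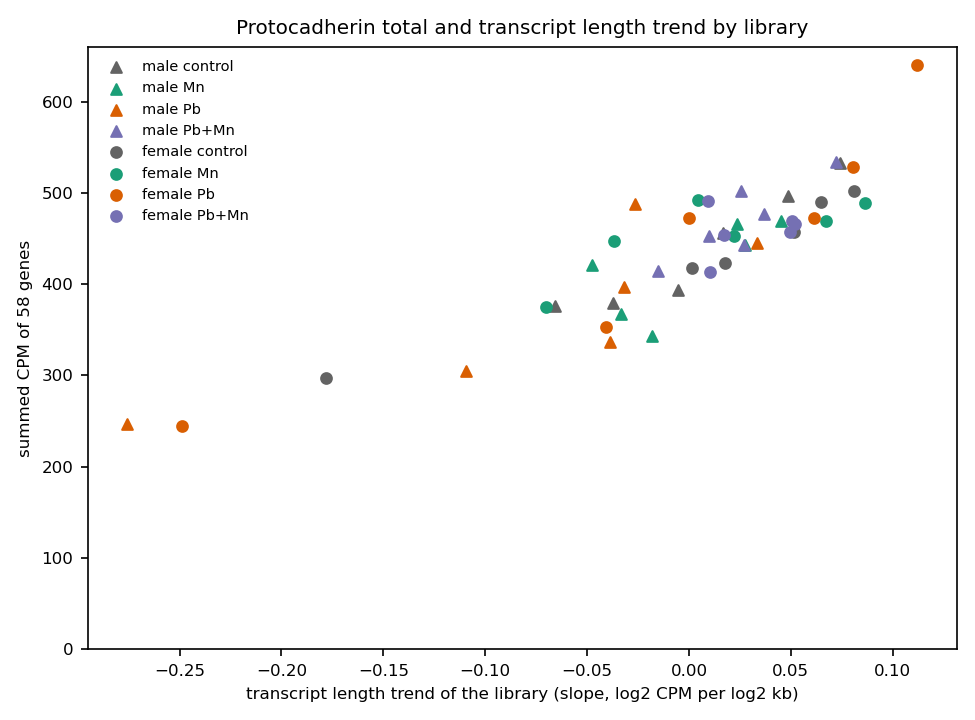
Summed CPM of the 58 genes against the length trend (slope of log2 CPM on log2 exonic length) for 48 libraries. Triangles are males, circles females, and colours mark treatment. Female Pb 2 and male Pb 6 lie at the lower left with 244 and 247 CPM, and female Pb 5 at the upper right with 640.

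To determine whether lead alone shifted the family in males, 6 Pb males were compared with 6 control males. The alpha, beta and gamma sums were 47.1 ± 13.7, 90.4 ± 18.3 and 232 ± 60.5 CPM in Pb males (SD, n = 6), compared with 56.8 ± 10.7, 109 ± 12.9 and 273 ± 47.8 CPM in controls, and each pair of groups overlapped. No member passed the test in edgeR (all genes 0%, smallest adjusted p = 0.40), 7 of 53 were at an unadjusted p under 0.05 (all genes 11.5%), all of them lower, and 51 of 53 had a log2 fold change below 0 (all genes 48.9%). The median was -0.25, compared with 0.01 for all genes tested.

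The lowest p-values in this comparison were those of alpha isoforms. Pcdha3 ran from 1.16 to 2.64 CPM (median 2.44) in Pb males and from 2.30 to 5.94 (median 3.23) in controls, so the groups overlapped although 6 of 6 Pb males lay below the control mean. Its log2 fold change was -0.63 ± 0.22 (adjusted p = 0.40 in edgeR). Pcdhac1, a C-type isoform, ran from 1.04 to 2.64 CPM (median 2.34) and from 2.03 to 4.43 (median 3.21). It had a log2 fold change of -0.63 ± 0.23 (adjusted p = 0.40), also with 6 of 6 Pb males below the control mean. The abundant C-type genes had smaller values, -0.28 ± 0.21 for Pcdhgc5, -0.22 ± 0.20 for Pcdhac2 and -0.03 ± 0.09 for Pcdhgc3 (adjusted p = 0.57, 0.65 and 0.89 in edgeR).

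Values of the libraries moved with this difference. The slope on exonic length was -0.075 ± 0.108 in Pb males and 0.00513 ± 0.0523 in control males (SD, n = 6 each). With the slope as a covariate, 25 of 53 members were above 0 and the median was -0.01. The slope comes from the same counts and was chosen after the data were seen. Such a fit takes out any shift of the family that runs along the slope, whatever its source. Covariate values here and below therefore cannot separate a library property from an exposure. In the fit with no covariate and without male Pb 6, the median of the members was -0.15, with 46 members below 0. The 7 members at an unadjusted p became 12 without male Pb 5, 11 without male control 1, 4 without male Pb 6 and 3 without male control 2. Summed meninges markers ran from 51.5 to 106 CPM in Pb males and from 54.4 to 179 in controls, with 8 of 10 genes below 0, and the choroid plexus markers from 197 to 6740 and from 49.0 to 4541 CPM, with 8 of 8 above 0. The markers of thalamus and habenula, which border the hippocampus, ran from 137 to 1126 CPM in Pb males and from 188 to 1389 in controls, with 10 of 10 genes below 0 (median -0.43). The part of the tissue markers in the result was not tested.

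Adding manganese to lead was examined in males by comparing Pb+Mn with Pb. Cluster sums in Pb+Mn males were 62.4 ± 10.6 CPM for alpha, 113 ± 10.3 for beta and 295 ± 25.8 for gamma genes (SD, n = 6), each with a higher mean than in Pb males. No member passed the test in edgeR (all genes 0%, smallest adjusted p = 0.11). At an unadjusted p under 0.05 were 17 of 53 members (all genes 22.3%), all higher, and 52 of 53 had a log2 fold change above 0 (all genes 48.1%). The median was 0.37, compared with -0.01 for all genes. By cluster, the medians were 0.52 for alpha, 0.35 for beta and 0.38 for gamma genes.

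Pcdha3 again had the smallest p. It ran from 3.13 to 4.86 CPM (median 3.64) in Pb+Mn males, above all 6 Pb males, with a log2 fold change of 0.80 ± 0.22 (adjusted p = 0.11 in edgeR). Pcdhgb5, a gamma B-type isoform, ran from 7.26 to 12.1 CPM (median 9.80) in Pb+Mn and from 4.36 to 7.37 (median 6.02) in Pb males. Its groups overlapped by a narrow margin, and its log2 fold change was 0.67 ± 0.21 (adjusted p = 0.11), with 6 of 6 Pb+Mn males above the Pb mean. Of the 11 libraries above the Pcdhgb8 step, 7 were among the 11 highest for Pcdhgb5. Pb+Mn males held 3 of 6 such libraries and Pb males 0 of 6, and the part of this split was not tested. Pcdhgc5 had 0.47 ± 0.21, Pcdhac2 0.39 ± 0.20 and Pcdhgc3 0.07 ± 0.08 (adjusted p = 0.18, 0.24 and 0.65). DESeq2 called 1 member, Pcdha3 (0.81, adjusted p = 0.045), among 304 of 36923 genes with a p-value (0.823%). That base was taken without the low-count filter of edgeR, so its share cannot be set beside the edgeR shares. Without male Pb 2 edgeR called 3 members (Pcdha3, Pcdhgb5 and Pcdhb21) among 1047 genes (6.35%), and without male Pb 5 it called 4 (Pcdha3, Pcdhgb5, Pcdhga2 and Pcdhgc5) among 1129 (6.84%). All were higher in Pb+Mn.

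The same library property differed here too. The slope was 0.0259 ± 0.029 in Pb+Mn males (SD, n = 6), and with it as a covariate 35 of 53 members were above 0, with a median of 0.08 and 3 at an unadjusted p. Summed markers of hippocampal neurons ran from 10049.9 to 11117 CPM in Pb+Mn and from 7086 to 12834 in Pb males, with 10 of 10 genes above 0 (median 0.16). The meninges markers ran from 96.5 to 139 and from 51.5 to 106 CPM, with 9 of 10 above 0 (median 0.70), and those of thalamus and habenula from 301 to 474 and from 137 to 1126 CPM, with 9 of 10 below 0 (median -0.30). The astrocyte markers ran from 6449 to 7600.2 and from 5985 to 9989.8 CPM, with 0 of 6 above 0 (median -0.09). The part of these markers in the result was not tested. Without male Pb 6 the median was 0.27, with 49 members above 0 and 5 at an unadjusted p, and that number was 9 without male Pb 4 or male Pb+Mn 1 and 11 without male Pb 3. In the Pb by Mn interaction in males, which is the effect of Pb in the presence of Mn minus that in its absence, 51 of 53 members were above 0 (all genes 49.3%) with a median of 0.48, 0 passed (all genes 0%) and 10 were at an unadjusted p (all genes 13.1%), a number that was 5 without male Pb 6 and 6 without male control 2 or male Pb+Mn 1. Pcdhgb8 had the smallest p there, with 5.59 ± 1.49 (adjusted p = 0.37). With the slope as a covariate 39 were above 0, with a median of 0.10.

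**Figure D5:**
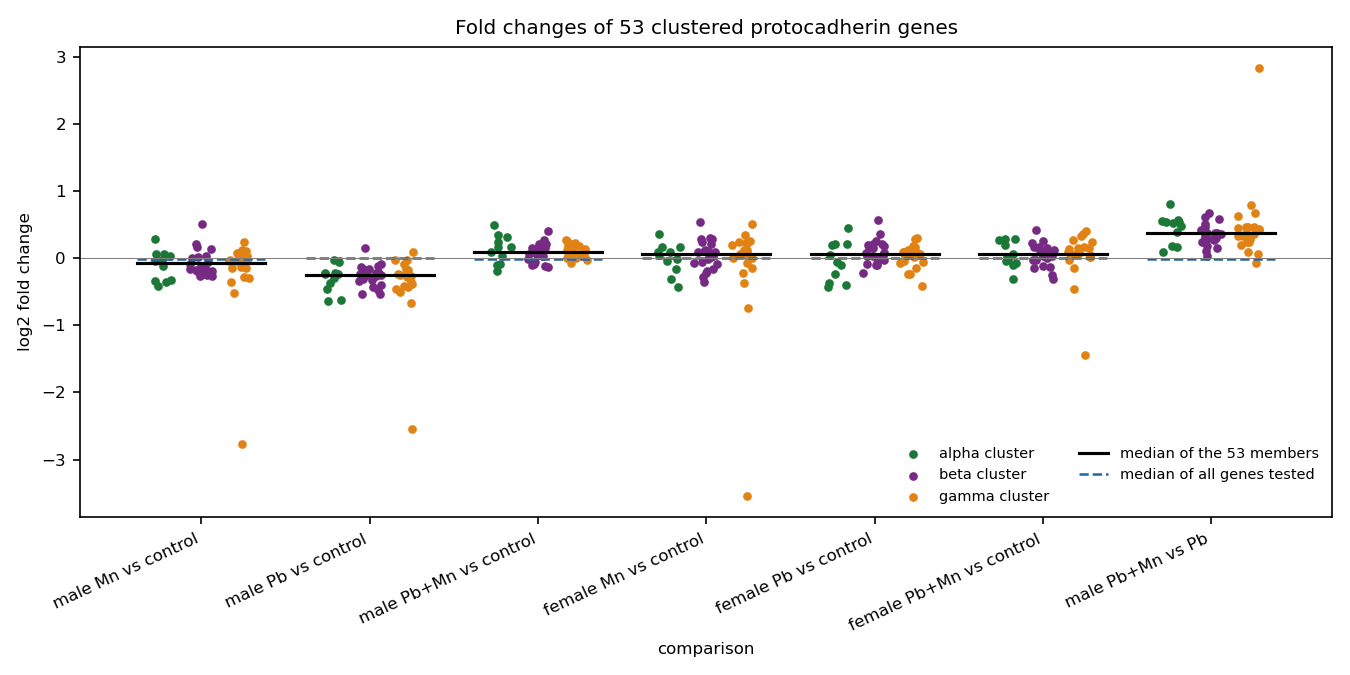
Log2 fold changes of the 53 tested members in 7 comparisons, 1 point per gene and coloured by cluster, with the median of the members (solid line) and of all genes tested (dashed line). The members lie mostly below 0 in male Pb and above 0 in male Pb+Mn against Pb (medians -0.25 and 0.37), and the isolated points below -1 or above 2 are Pcdhgb8.

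The remaining male comparisons were Mn and Pb+Mn against control and Pb+Mn against Mn. For Mn against control, 16 of 53 members were above 0 (all genes 48.2%), the median was -0.08, 0 passed (all genes 0%) and 1 was at an unadjusted p (all genes 1.92%), which was Pcdhgb8. Without male control 2, 27 were above 0 and the median was 0.01. Pcdhb12, a low beta gene, ran from 1.11 to 1.88 CPM (median 1.60) in Mn males and from 0.346 to 1.66 (median 1.12) in controls, with a log2 fold change of 0.51 ± 0.26 (adjusted p = 1). For Pb+Mn against control, 42 of 53 were above 0 (all genes 48.4%), with a median of 0.10, 0 passing (all genes 0%) and 0 at an unadjusted p (all genes 2.24%). Pcdhb18 (0.40 ± 0.21) and Pcdha9 (0.49 ± 0.26) had the smallest p-values, with 6 and 5 of 6 animals above the control mean, and neither passed (adjusted p = 1). For Pb+Mn against Mn, 45 of 53 were above 0 (all genes 49.4%), with a median of 0.21, 0 passing (all genes 0%) and 4 at an unadjusted p (all genes 3.81%), among them Pcdhgb8 (3.04 ± 1.07) and Pcdhgb5 (0.52 ± 0.21, adjusted p = 0.95 for both). Here too the groups differed in libraries above the Pcdhgb8 step, 3 of 6 in Pb+Mn and 0 of 6 in Mn males. With the length slope as a covariate the medians were -0.06 for Mn against control (18 of 53 above 0, 5 at an unadjusted p), 0.03 for Pb+Mn against control (33 above 0) and 0.13 for Pb+Mn against Mn (36 above 0, 5 at an unadjusted p).

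In females the members' medians against control were 0.06 for Mn, 0.06 for Pb and 0.07 for Pb+Mn. Above 0 were 32 of 53 for Mn (all genes 49.8%), 34 for Pb (all genes 52.8%) and 37 for Pb+Mn (all genes 49.7%), and 0 passed in each (all genes 0%). At an unadjusted p under 0.05 were 3 members for Mn (all genes 2.59%), 1 for Pb (all genes 2.25%) and 0 for Pb+Mn (all genes 1.46%). Without female control 1 the medians were -0.03, -0.04 and -0.02, and without female control 5 they were 0.12, 0.12 and 0.11. Without female Pb 5 the median for Pb was -0.09, with 16 of 53 members above 0, and without female Pb 2 it was 0.18, with 44 above 0 and 3 at an unadjusted p. The 3 members at an unadjusted p for Mn became 6 without female control 4 and 5 without female control 1. With the length slope as a covariate the numbers at an unadjusted p were 10 for Mn, 4 for Pb and 1 for Pb+Mn, and with both male Pb 6 and female Pb 2 left out they were 7, 5 and 2. Pcdhgb7, a gamma B-type isoform, had a log2 fold change of 0.51 ± 0.21 in Mn and 0.41 ± 0.21 in Pb+Mn females, which share their controls. It ran from 9.87 to 16.0 CPM (median 12.5) in Mn, from 9.73 to 13.1 (median 12.1) in Pb+Mn and from 6.36 to 11.8 (median 8.44) in control females. All 6 animals of each exposed group were above the control mean, the groups overlapped, and the adjusted p was 1 in both comparisons. Of the 11 libraries above the Pcdhgb8 step, 6 were among the 11 lowest for Pcdhgb7. Control females held 3 of 6 such libraries, Mn females 0 of 6 and Pb+Mn females 1 of 6, and the part of this split was not tested. Pcdhb4, a beta gene, had 0.57 ± 0.25 in Pb females (1.96 to 4.60 CPM against 1.23 to 2.88, adjusted p = 1).

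Other members of smallest p in females were likewise within the spread of their groups. In Pb+Mn females Pcdhgb6 had 0.36 ± 0.19 against control, and in Pb females Pcdha3 had -0.40 ± 0.22, with 6 of 6 animals on 1 side of the control mean for both (adjusted p = 1). For Pb+Mn against Pb, Pcdha1 had 0.71 ± 0.33 and Pcdhb3 -0.35 ± 0.20 (adjusted p = 0.96), and for Pb+Mn against Mn, Pcdhb13 had 0.64 ± 0.25 (adjusted p = 1) with 6 of 6 animals above the Mn mean. Pcdhgb8 had 2.10 ± 1.11 in the last comparison, in which female Pb+Mn 4 is the 1 upper library. Above 0 were 31 of 53 members against Pb (all genes 48.9%) and 29 against Mn (all genes 49.5%), 0 passed in either (all genes 0%), and 1 was at an unadjusted p in each (all genes 3.71% and 2.38%). The Pb by Mn interaction in females had 20 of 53 above 0 (all genes 48.3%), 0 passing (all genes 0%) and 3 at an unadjusted p (all genes 3.17%).

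The difference between the sexes was tested directly. Between control females and control males 26 of 53 members were above 0 (all genes 47.7%) and 0 passed, while 7 of all genes (0.0428%) did. At an unadjusted p were 0 members (all genes 1.08%). Pcdhgc3 (-0.14 ± 0.09) and Pcdhb6 (0.43 ± 0.27), a beta gene, had the smallest p-values among the members (adjusted p = 1). In the sex by Pb interaction, the Pb effect in females minus that in males, 46 of 53 were above 0 (all genes 47.9%) with a median of 0.36, 0 passed (all genes 0%) and 1 was at an unadjusted p (all genes 1.89%), a number that reached 12 without female Pb 2 and 7 without male Pb 5. With the length slope as a covariate 37 were above 0, with a median of 0.13. The sex by Mn and sex by Pb+Mn interactions had medians of 0.11 and -0.02, with 36 and 22 of 53 above 0 (all genes 52.5% and 52.4%). In these, 0 members passed (all genes 0%), and 1 and 0 were at an unadjusted p (all genes 0.844% and 0.568%).

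Regulators of promoter choice in the clusters were given by a list of 23 genes, all of them tested. In male Pb against control 18 of 23 were below 0 (all genes 48.9%), with a median of -0.13, and 0 passed (all genes 0%). Among them were the cohesin ring gene Smc3 (-0.24 ± 0.10), its partner Stag1 (-0.22 ± 0.10), the histone methyltransferase gene Setdb1 (-0.21 ± 0.07) and Ctcf (-0.11 ± 0.08), whereas the cohesin gene Rad21 was at 0.21 ± 0.09 (adjusted p of 0.40 to 0.59). In male Pb+Mn against Pb, 22 of 23 were above 0 (all genes 48.1%) with a median of 0.16, and 0 passed (all genes 0%). The exception was Rad21 (-0.20 ± 0.09). Smc3 had 0.25 ± 0.10 and Smchd1, a chromatin protein that binds the clusters, 0.41 ± 0.17 (adjusted p = 0.15 and 0.16 in edgeR). The part of the length slope in the values of these regulators was not tested.

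Partners and signalling genes of the protocadherins, such as kinases and actin regulators that act on their cytoplasmic tails, were 22 genes. In male Pb against control 18 of 22 were below 0 (all genes 48.9%), with a median of -0.12. The 2 genes at an unadjusted p under 0.05 (all genes 11.5%) were above 0. These were Pdcd10 (0.65 ± 0.29) and Brk1 (0.43 ± 0.19, adjusted p = 0.40 for both in edgeR). In male Pb+Mn against Pb 16 of 22 were above 0 (all genes 48.1%), with a median of 0.13. The smallest p-values there were those of Pdcd10 (-1.02 ± 0.29) and Rhoa (-0.21 ± 0.06), both below 0. Next was Axin1 (0.26 ± 0.08), above 0 (adjusted p = 0.11 for all of these in edgeR). In each comparison 0 passed (all genes 0%). The part of the length slope in the values of these partner genes was not tested. The 12 non-clustered protocadherins are single genes outside the alpha, beta and gamma clusters. In the same comparisons they had medians of -0.10 (8 of 12 below 0, all genes 48.9%) and 0.07 (6 of 12 above 0, all genes 48.1%). Pcdh1 was the most abundant of these at 435 ± 100.0 CPM (SD, n = 48).

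Genes whose log2 CPM over the 48 libraries was most like that of a member were taken from the whole table. For Pcdhac2 they were Cnot1 (Pearson r = 0.92, Spearman rho = 0.82), Rapgef2 (0.91 and 0.84) and Synj1 (0.91 and 0.87). For Pcdhgc3 the values were lower, with Fasn (0.73 and 0.67), Celsr1 (0.72 and 0.69) and Phlpp1 (0.72 and 0.62). For Pcdha8 they were lower again, and the first was the pseudogene Rpsa-ps10 (0.51 and 0.50). These libraries share the length trend described above, and no likeness was tested.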

How the data were processed

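RNA-seq counts per gene, whole numbers with no normalization, were used as deposited by the authors for all 48 libraries. Per the labels' protocols, sequencing of read pairs followed a stranded mRNA preparation by Illumina. GRCm39 was the build, per the submitters' processing notes, which also list featureCounts 2.0.6 among the tools, with STAR 2.7.10b, Trim Galore 0.6.9, limma, edgeR and R 4.4.2. Whether counting used strand, or kept reads that map to multiple or overlapping genes, was not stated there. Symbols were matched for 51884 identifiers, which held 99.5% of counts. Lengths, gene types and gene order came from GENCODE M21, which is on another build, so no coordinates are given.

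Here, edgeR 4.0.16 (R 4.3.3) normalized by TMM, filtered low counts to 16360 genes and fitted the 8 groups together by the quasi-likelihood test, two-sided, with Benjamini-Hochberg adjustment over all genes within a comparison (threshold 0.05). CPM values are TMM-scaled. Errors of log2 fold changes are standard errors. A step is the widest gap between libraries ordered by log2 CPM (prior count 2) with at least 3 libraries on each side. The closest libraries of any group still had a chi-square per degree of freedom of 8.90, so none was counted as a repeat. The fit was tested on simulated data. Alternatives were DESeq2 1.42.0, limma 3.58.1 (voom), DESeq2 size factors, no low-count filter, only the groups compared, the replicate number as a block and leaving out each library. The length covariate and the joint removal of male Pb 6 and female Pb 2 were chosen after seeing the data.

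Members and gene lists were chosen with earlier results of these data known. The genes named were, per comparison, the 2 members of smallest p where fewer than 2 passed, the C-type isoforms, the most abundant member of each cluster, the 6 of highest dispersion ratio, all-or-none members (mean of at least 0.3 CPM, 2 or more libraries under 0.05 CPM, highest at least 1 CPM), and the 3 genes most like Pcdhgc3, Pcdhac2 and the all-or-none member. Others were named after their values were seen.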

Additional observations from a re-analysis of the deposited data

Results flagged for a closer look

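Within each group of 6, the highest or lowest animal was compared with the gap to the other 5 (Dixon's ratio above 0.625). The members named by rule and the cluster sums gave 208 group and gene combinations, of which 23 stood apart. For independent values of a normal spread, chance gives about 1 in 20. That rate is no measure for these 23. The members were named partly for their spread or p in the same data, and the cluster sums contain them. Male control 2 stood apart for Pcdhgb8 (16.2 CPM, the other 5 at 0.301 to 0.67) and Pcdhga5 (9.27, others 1.87 to 2.80) on the high side, and for Pcdhb9 (6.45, others 9.87 to 11.9) and Pcdhb12 (0.346, others 1.00 to 1.66) on the low side. Female Pb+Mn 4 was high for Pcdhgb8 (7.42, others 0.327 to 0.571) and Pcdhga5 (6.39, others 2.43 to 3.21) and low for Pcdhgb7 (9.73, others 11.7 to 13.1).

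Female control 1, with the third lowest family sum, was low for Pcdhac2 (12.4 CPM, others 28.8 to 40.9), Pcdhgc5 (57.3), Pcdha1 (0.189), Pcdha9 (0.566) and the alpha and gamma sums (28.0 and 186). Female Mn 2 was low for Pcdhac2 (25.4), Pcdhgc5 (66.9) and the alpha and gamma sums (45.9 and 227). Female Pb 2 was low for Pcdhgc3 (38.5, others 48.4 to 54.3) and male Pb 6 for Pcdhgc4 (3.08, others 6.66 to 8.36).

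Single values apart from their group were also those of Pcdhgc4 in male Mn 4 (5.27 CPM), Pcdhb13 in male Mn 2 (2.33), Pcdha9 in female Mn 4 (1.10) and, on the high side, Pcdha1 in male Pb+Mn 3 (1.16).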

How the results depend on the processing

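The number of members that passed was 0 under 377 of 380 alternatives. The exceptions were all in male Pb+Mn against Pb: 1 member with DESeq2 (304 of all genes), and a range of 0 to 4 when 1 library was left out (3 without male Pb 2, of 1047 genes called, and 4 without male Pb 5, of 1129). The cause was not tested. Of 436 alternatives for the members named by smallest p, 430 kept direction and side of the threshold, 5 passed it (Pcdha3 and Pcdhgb5, in male Pb+Mn against Pb), and 1 changed sign: Pcdhgb8 in male Mn, which ran from -3.00 to 0.035 when 1 library was left out, with 0.035 without male control 2.

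With the length slope as covariate, chosen after seeing the data, the alpha and gamma medians in male Pb+Mn against Pb were 0.13 and 0.02, and those of the male interaction 0.09 and 0.09. The replicate block changed no call (0 members passed in each comparison). Same-numbered animals of different groups had a median r of 0.03 over 168 pairs, with 51 above 0.1. For animals of different number the median r was -0.007 over 840 pairs, with 213 above 0.1. The difference between these sets of pairs was not tested, and the number was not taken as a pairing.

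At 1 to 25 counts for Pcdha8 and fewer for Pcdha4 and Pcdhga10, differences between groups were not detectable at this depth. Genes under about 1 CPM rest on few counts. Reads in exons shared within the alpha or gamma cluster cannot be assigned here to one gene.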
